A study of Homo sapiens and Mus musculus with 12 samples.

Results

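Tubulins are the building blocks of microtubules, and stathmin is one of the proteins that keep them from assembling. The members described here are 10 human genes and their mouse counterparts: the stathmin gene STMN1, the alpha-tubulin genes TUBA1A, TUBA1B and TUBA1C, and the beta-tubulin genes TUBB, TUBB2A, TUBB2B, TUBB3, TUBB4B and TUBB6. They were listed by name, and the list was chosen by the RKO fold change of STMN1, which was among the most stable lower genes, so values of the RKO contrast are given for these genes as a description, without a test. Of the 10, 8 were matched among 15590 rows of the RKO table, and TUBB and TUBB2B were not analysed here. All 10 were matched among 17383 genes of the mouse table, where TUBB is named Tubb5. Every matched member had a mean of at least 1 over its 6 libraries, the minimum used for testing, which left 15590 RKO rows and 11366 colon genes.

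RKO is a human colon cancer cell line. All of its 6 libraries came from cells carrying an shRNA against ZNF280C, a zinc finger protein gene, behind a promoter switched on by doxycycline. In 3 of them the cells had received 1 ug/ml doxycycline for 72 h and in the other 3 none, so the drug itself and the knockdown cannot be told apart. The 6 mouse libraries were colon tissue of C57BL/6J animals at 12 weeks of age, 3 with Zfp280c knocked out and 3 wild-type. The allele, the sex of the mice and the part of the colon taken are not given in the sources used here. The RKO replicates are not said to be separate cultures, so p-values there measure the spread between libraries, which may be technical. In bulk RNA of either kind, fewer cells of a type and less RNA per cell cannot be told apart.

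Alpha- and beta-tubulin join as a dimer, and dimers stack end to end into the wall of the microtubule, the polymer that forms the mitotic spindle, the tracks for transport and the core of cilia. Stathmin binds dimers and takes them out of the assembling pool, and phosphorylation on serines at the start of mitosis releases them. Cells keep tubulin in balance by autoregulation: when free dimers are plentiful, the adaptor TTC5 reads the first residues of tubulin chains as they leave the ribosome and has their mRNAs degraded. The colon is an epithelium that renews from dividing crypt cells, wrapped in smooth muscle and enteric nerves. TUBB3 is best known as the beta-tubulin of neurons.

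The coding starts show the stretch on which autoregulation works, with codons 2 to 4 in capitals. They are human coding sequences from GENCODE 29 on GRCh38, written 5′ to 3′, and a representative of each kind is shown.
TUBA1B: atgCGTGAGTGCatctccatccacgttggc
TUBB4B: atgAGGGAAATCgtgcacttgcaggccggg
TUBB3: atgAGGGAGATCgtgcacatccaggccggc
TUBB2A: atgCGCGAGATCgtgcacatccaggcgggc
STMN1: atgGCTTCTTCTgatatccaggtgaaagaa
TUBA1A and TUBA1C share all 30 of these bases with TUBA1B. Among the beta-tubulins, TUBB has the same 3 codons as TUBB4B, TUBB6 has those of TUBB3, and TUBB2B has CGTGAGATC in their place. STMN1, which is no tubulin, carries a different start.

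The end of the coding sequence encodes the acidic tail on the microtubule surface, where isotypes differ to unlike degrees. TUBA1A and TUBA1B share all of their last 45 coding bases. The last 45 coding bases before the stop codon are shown for 4 beta isotypes, in lower case throughout.
TUBB4B: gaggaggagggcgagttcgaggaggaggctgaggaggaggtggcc
TUBB2A: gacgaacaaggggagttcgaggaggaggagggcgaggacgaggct
TUBB2B: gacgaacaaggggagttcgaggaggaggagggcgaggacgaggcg
TUBB3: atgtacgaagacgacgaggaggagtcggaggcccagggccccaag
Over the whole coding sequence, the 3 alpha pairs were 95.9% to 97.2% identical, and TUBA1A and TUBA1B differed at 38 of 1356 bases. The 15 beta pairs ranged from 80.9% to 98.1%, the closest being TUBB2A and TUBB2B, which differed at 25 of 1338 bases. Alpha and beta sequences shared 52.7% to 55.2%. How the authors' counting assigned reads that fit more than 1 isotype is not given in the sources used here, so the split between TUBA1A, TUBA1B and TUBA1C, and between Tubb2a and Tubb2b, is uncertain.

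STMN1 lies on human chromosome 1 (GRCh38, 25900118 to 25906153, minus strand) in the GENCODE 29 annotation and its coding sequence is 450 bases with the stop codon. The first 195 coding bases hold the codons of the 4 serines known to be phosphorylated, numbers 16, 25, 38 and 63 counted from the initiator methionine, shown in capitals because they are where kinases switch stathmin off.
STMN1: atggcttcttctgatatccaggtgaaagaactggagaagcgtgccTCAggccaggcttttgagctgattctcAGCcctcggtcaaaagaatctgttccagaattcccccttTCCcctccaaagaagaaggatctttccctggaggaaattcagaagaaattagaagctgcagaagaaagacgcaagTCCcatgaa

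Expression of the targeted gene was checked first. ZNF280C signal in RKO cells was 123, 99.6 and 79.1 in the 3 doxycycline libraries and 192, 172 and 227 in the 3 untreated ones, so the groups did not overlap. The mean with doxycycline was 51.0% of that without (log2 fold change -0.98 ± 0.15 SE, limma adjusted p = 0.0276, exact two-sided permutation p = 0.1, the smallest that 3 against 3 allows). The call was lost without doxycycline replicate 2 or 3 and without each untreated replicate, with adjusted p from 0.0621 to 0.0922. In colon, Zfp280c was 0.09, 0.09 and 0.22 FPKM in the knock-out libraries and 2.48, 2.25 and 3.17 FPKM in the wild-type ones, 5.06% of the wild-type mean. Its limma adjusted p was 0.123 and its exact permutation p 0.1. In RKO cells 178 of 15590 genes passed an adjusted p under 0.05, which is 1.14%, with 60 higher (0.385%) and 118 lower (0.757%). In colon 0 of 11366 genes passed in limma (0%, also for each direction), and 1420 had an unadjusted p under 0.05.

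Before the RKO results, the libraries themselves need a description. Doxycycline replicate 2 and untreated replicate 2 hold exactly equal values in 310 rows, and doxycycline replicate 3 and untreated replicate 1 in 526 rows, while every other pair of libraries shares 0. Signal summed to between 9050160.5 and 9195210.8 per RKO library. Of 8 epithelial markers, 5 were measured in RKO cells, and EPCAM signal averaged 72.5 ± 4.01 in treated and 71.2 ± 1.92 in untreated cells (SD over 3 libraries). CDH1, KRT19, KRT20 and the 8 neuron and 5 enteric glia markers were not analysed there.

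In RKO cells the question was how stathmin and tubulin transcripts stood once the shRNA was switched on. STMN1 was the member with the most separated groups, lying lower in all 3 doxycycline libraries at 80.2% of its untreated level. TUBA1B, the most abundant alpha-tubulin, was also lower without overlap, at 91.8%. The other 6 measured tubulins had overlapping groups. Among them was TUBB4B, the most abundant of the beta-tubulins measured, which leave out TUBB and TUBB2B. Of the 8 members measured, 1 passed the threshold used for all genes, STMN1, lower, beside 1.14% of all genes in either direction. The members were chosen with this contrast known, so nothing is read from that count.

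STMN1 signal was 2179, 2246 and 2173 with doxycycline and 2685, 2744 and 2796 without. The groups did not overlap, and the gap between the groups was larger than the spread within either. The log2 fold change was -0.32 ± 0.03 SE, from a mean of 2742 ± 55.7 to 2199 ± 40.5 (SD, n = 3 each). It was -0.28 after quantile normalization and -0.25 once a trend with GC content was removed from each library. With each library left out in turn it ranged from -0.33 to -0.30. STMN1 did not pass the threshold without doxycycline replicate 3, untreated replicate 2 or untreated replicate 3.

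TUBA1B encodes the alpha-tubulin found in nearly every cell. Its signal was 4556, 4463 and 4675 with doxycycline and 5048, 4997 and 4878 without. The lowest untreated library stood above the highest treated one by less than the spread among the treated libraries. The log2 fold change was -0.12 ± 0.03 SE. Complete separation in the lower direction held for 2 of the 8 members, STMN1 and TUBA1B, and for 13.3% of all genes (21.9% in either direction).

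TUBA1C, a close relative that lies near TUBA1B on the chromosome, had signal of 3341, 3179 and 3389 with doxycycline and 3670, 3482 and 3200.5 without. Untreated replicate 3 fell inside the range of the treated libraries, and the log2 fold change was -0.06 ± 0.05 SE. TUBA1A, the alpha-tubulin best known from developing neurons, had signal of 370, 413 and 363 with doxycycline and 318, 339 and 390 without. Its groups overlapped and its log2 fold change was positive, 0.13 ± 0.08 SE.

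TUBB4B, a broadly expressed beta-tubulin that is also a main component of cilia, had signal of 8533, 8400.4 and 7907 with doxycycline and 8620.02, 7286 and 7768 without. Untreated replicate 1 was the highest of the 6 libraries and untreated replicate 2 the lowest, so the untreated group spanned the treated one (log2 fold change 0.07 ± 0.06 SE). TUBB6, found in many non-neuronal cells, had 309, 321 and 353 with doxycycline and 330.3, 355 and 339 without (-0.06 ± 0.06 SE). Its groups overlapped as well.

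TUBB2A had signal of 41.3, 40.04 and 31.6 with doxycycline and 42.3, 40.04 and 41.8 without. It is one of the rows in which doxycycline replicate 2 and untreated replicate 2 hold the same value, and its lowest library was doxycycline replicate 3 (log2 fold change -0.14 ± 0.11 SE). TUBB3, the neuronal isotype, was the lowest member, with 15.3, 20.9 and 21.1 against 16.6, 15.8 and 22.2 (0.07 ± 0.17 SE). Over the 8 members, 5 log2 fold changes were below 0 and 3 above, with a median of -0.06, where all genes had 55.1% below 0, 44.9% above and a median of -0.01.

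**Figure D1:**
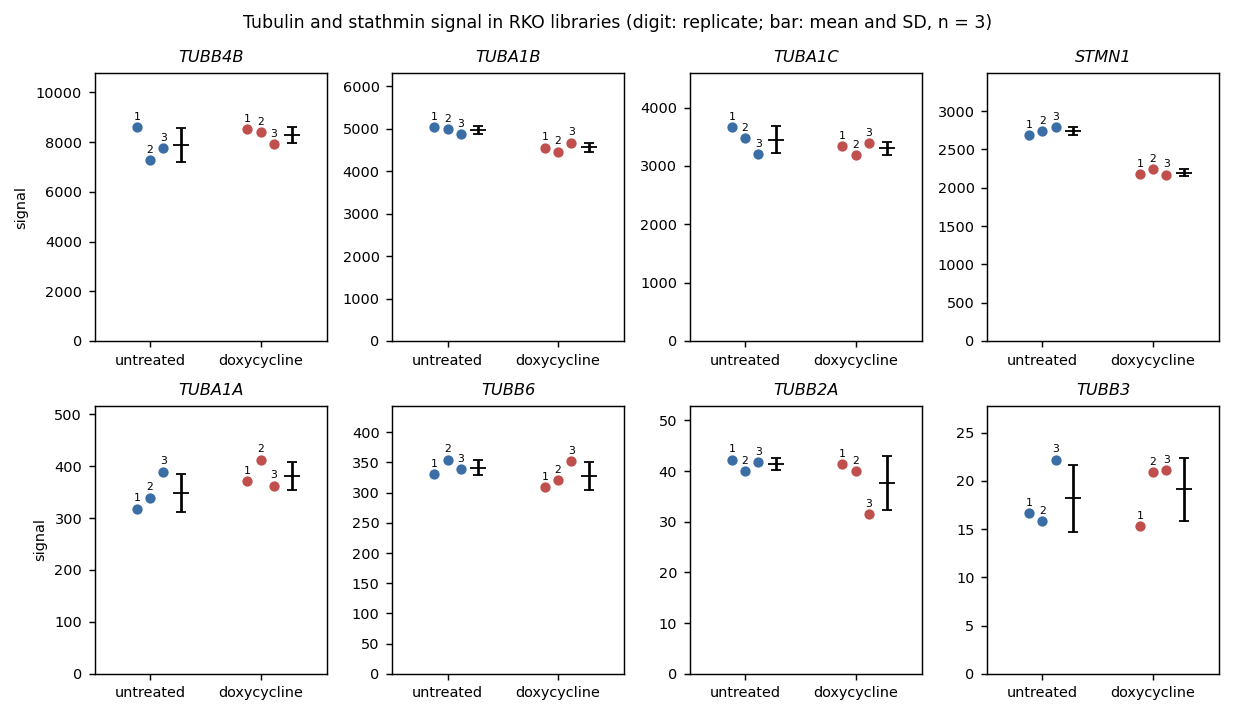
Signal of the 8 members measured in RKO cells, 1 panel per gene with its own axis from 0. Points are libraries numbered by replicate (blue untreated, red doxycycline), and bars are the mean and SD of 3. STMN1 and TUBA1B are the panels in which all red points lie below all blue ones.

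Levels of different genes were compared after division by the length of the GENCODE transcript, as signal per kilobase. In untreated cells TUBB4B stood highest at 4821 ± 413, followed by TUBA1B at 3057 ± 53.4, STMN1 at 1602 ± 32.5 and TUBA1C at 1150 ± 78.7 (SD, n = 3 each). A gap then separated TUBA1A at 182 ± 19.1 and TUBB6 at 165 ± 5.99 from these 4, and TUBB2A (25.9 ± 0.741) and TUBB3 (10.3 ± 1.97) came last. With doxycycline the order was the same, with STMN1 at 1285 ± 23.7 per kilobase. Each gene stood above the next in 6 of 6 libraries, and only the ranges of TUBA1A and TUBB6 overlapped. The place of STMN1 above TUBA1C rests on the division by length: in the values as deposited TUBA1C was the higher, 3451 ± 236 against 2742 ± 55.7 in untreated cells, and if the deposited values are already per length, that is the order that holds.

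The make-up of the tubulin pool at the mRNA level was read as each isotype's share of the summed signal per kilobase. TUBA1B made up 68.2%, 68.3% and 68.5% of the 3 alpha isotypes with doxycycline and 69.1%, 69.7% and 70.2% without. The difference of the means, -1.33 percentage points, was small, and the groups did not overlap. TUBA1C made up 26.8% ± 0.390 and 26.2% ± 1.13, and TUBA1A 4.86% ± 0.444 and 4.16% ± 0.547. TUBB4B made up 96.3% ± 0.314 of the 4 beta isotypes measured with doxycycline and 95.96% ± 0.422 without, a share that leaves out TUBB and TUBB2B. Without the division by length TUBA1B made up 55.3% ± 0.200 with doxycycline and 56.7% ± 0.873 without, TUBA1C 40.03% ± 0.499 and 39.3% ± 1.42, and TUBB4B 95.6% ± 0.396 and 95.1% ± 0.512. Per kilobase, TUBB6 followed with 3.03% and 3.32%, and TUBB2A and TUBB3 stayed below 1% in each library. The groups of the TUBB2A share did not overlap either, at 0.448% ± 0.0478 with doxycycline and 0.518% ± 0.0287 without. The highest doxycycline library, at 0.480%, lay just below the lowest untreated one, at 0.485%, and the TUBB2A signal itself overlapped. For the shares other than those of TUBA1B and TUBB2A the groups overlapped.

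Set against the summed alpha-tubulin, STMN1 stood at 31.0, 32.7 and 30.3 per 100 with doxycycline and at 34.9, 36.4 and 38.3 without, again per kilobase. The means were 31.3 ± 1.22 and 36.5 ± 1.68, and 26.7 ± 1.08 and 31.3 ± 1.66 without the division by length. Summed alpha-tubulin was 4106 ± 87.1 with doxycycline and 4389 ± 113 without, and summed beta-tubulin 5251 ± 193 and 5022 ± 408.

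Promoter sequence is shown for the most abundant alpha- and beta-tubulin among those measured. These are TUBA1B, whose groups did not overlap, and TUBB4B, whose groups did. The windows come from RefSeq on GRCh38.p14 and end just before the GENCODE transcript. Capitals mark matches on either strand to the GC box GGGCGG, to CCAAT, and to TTTGAA or TTCGAA, a pair of letter strings of the cell cycle homology region found in promoters of mitotic genes. The TUBA1B window is chr12:49131396-49131645 (minus strand).
TUBA1B: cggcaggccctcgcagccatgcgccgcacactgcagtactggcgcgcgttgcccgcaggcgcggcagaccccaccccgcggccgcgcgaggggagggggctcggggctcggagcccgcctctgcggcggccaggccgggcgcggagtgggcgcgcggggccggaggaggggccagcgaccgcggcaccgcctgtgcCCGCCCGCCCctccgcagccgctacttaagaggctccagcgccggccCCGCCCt
The TUBB4B window is chr9:137241037-137241212 (plus strand), with the 74 bases inside the GENCODE transcript left out.
TUBB4B: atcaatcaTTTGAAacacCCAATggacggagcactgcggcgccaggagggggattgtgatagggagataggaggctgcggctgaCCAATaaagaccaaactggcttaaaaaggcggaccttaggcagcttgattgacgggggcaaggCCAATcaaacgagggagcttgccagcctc
TUBA1B held 3 GC boxes, of which 2 overlap, and 0 matches to the other motifs. TUBB4B held 3 CCAAT and 1 TTTGAA and 0 GC boxes. Of 35116 promoter windows of 250 bases, 42.6% held a GC box, 32.0% CCAAT, 13.3% TTTGAA and 1.19% TTCGAA. These are matches of letters and not binding sites.

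Cell division genes were counted beside STMN1, since stathmin and tubulins are in demand in mitosis. All 10 markers of dividing cells had negative log2 fold changes with doxycycline, where 55.1% of all genes did. The median was -0.13, against -0.01 for all genes. In limma 0 of these markers passed, while 6 had an unadjusted p under 0.05 (17% of all genes). Their summed signal was 15466 to 16769 with doxycycline and 16789 to 18070 without. TOP2A, which untangles DNA before division, came closest (-0.17, adjusted p = 0.0523). The part of these genes in the STMN1 difference was not tested. Of the 5 epithelial markers measured, 3 were positive and 2 negative. CDX2 rose (0.31 ± 0.05 SE, limma adjusted p = 0.0335), and the other 4 did not pass. KRT8 had 0.23 (adjusted p = 0.0523), EPCAM 0.03, KRT18 -0.06 and VIL1 -0.09. The CDX2 call was lost in all 6 fits without 1 library (adjusted p from 0.0636 to 0.146).

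The 5 genes whose profile over the 6 RKO libraries was most like that of STMN1 were RP1-145M24.1, CTC-203F4.2, PGK1, H1F0 and ARL6IP6. Likeness was the root mean square difference of centred log2 values, which ran from 0.0166 for RP1-145M24.1 to 0.0320 for ARL6IP6, against an SD of 0.161 for the profile of STMN1 itself. PGK1 encodes a glycolytic enzyme and H1F0 a linker histone. Profiles were compared in the libraries that chose STMN1, so this is a description.

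Processed copies of tubulin genes can take up reads of their parents. TUBBP1, a pseudogene of TUBB, had signal of 468, 456 and 447 with doxycycline and 501, 492 and 496 without, and TUBBP2 had 168 ± 11.6 and 176 ± 20.5. Those rows are the closest available to TUBB in this table and are no measure of it.

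The other genes of the tubulin pathway were counted by list. Of 7 other tubulins measured, 0 passed: the testis- and muscle-associated TUBA8 had the lowest p, at 8.14 ± 0.714 against 6.06 ± 0.351 signal (0.37, adjusted p = 0.261). STMN3, a stathmin of neurons, had a log2 fold change of 0.04 (adjusted p = 0.836). Of 20 genes that fold tubulin, 0 passed and 15 were negative, beside 55.1% of all genes. The median was -0.06 against -0.01 for all genes. TCP1, a chaperonin subunit, had -0.11 (adjusted p = 0.146) and TBCEL, which resembles a tubulin cofactor, -0.15 (0.185). Of the 3 autoregulation genes, 0 passed, with TTC5 at -0.08 (0.506) and CNOT11, part of the deadenylase complex, at -0.04 (0.714).

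Enzymes that modify tubulin tails numbered 16, of which 0 passed, 12 were positive and 4 negative, with a median of 0.04. Of all genes 44.9% were positive. AGTPBP1, which trims glutamates from the tail, had 308 ± 4.50 against 356 ± 11.5 signal (-0.21, adjusted p = 0.0618), and TTLL7, which adds them, -0.25 (0.199). Of 19 genes that bind or cut microtubules, 0 passed, 11 were positive and 8 negative, with a median of 0.02. The depolymerizing kinesin KIF2C had -0.20 (0.0575) and the severing enzyme subunit KATNA1 -0.20 (0.160).

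Gamma-tubulin complexes, which seed new microtubules, were the list with members that passed, 1 lower and 1 higher of 17, beside 0.757% and 0.385% of all genes. MZT1, a small protein that helps recruit the complex, fell from 324 ± 15.4 to 241 ± 4.24 signal (-0.43 ± 0.05 SE, adjusted p = 0.0152). TUBGCP6, a subunit of the ring complex, rose from 478 ± 8.12 to 570 ± 12.5 (0.25 ± 0.04 SE, adjusted p = 0.0316). The MZT1 call was lost in 4 of 6 fits without 1 library, those without doxycycline replicate 3 (adjusted p = 0.0633) or untreated replicate 1 (0.0677), 2 (0.0588) or 3 (0.0881). The TUBGCP6 call was lost in all 6 (0.0555 to 0.134) and with the GC trend removed (0.0716).

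In colon tissue the same genes were compared between knock-out and wild-type mice, a contrast that did not choose them. No member passed: 0 of 10, where the share of all genes was 0%. Stmn1 was the only member with a negative log2 fold change, and 9 were positive, beside 44.6% of all genes above 0 and 55.4% below. The median over the members was 0.19, against -0.02 for all genes. Tubb2a showed the largest difference, 1.55 on the log2 scale, with wild-type libraries that ranged from 5.29 to 41.44 FPKM. Unadjusted p was under 0.05 for 2 of 10 members, Tuba1c and Tubb2a, beside 12.5% of all genes, and 0 of 10 had groups without overlap, beside 16.9%.

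Stmn1 was 42.04, 31.82 and 48.05 FPKM in the knock-out libraries and 42.01, 58.34 and 40.19 FPKM in the wild-type ones. The groups overlapped, with the highest value in wild-type replicate 2 and the lowest in knock-out replicate 2. The log2 fold change was -0.20 ± 0.20 SE (limma adjusted p = 0.653). It was -0.0353 without wild-type replicate 2, -0.0387 without knock-out replicate 2 and -0.33 without knock-out replicate 3, so its size depended on single libraries.

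Tuba1a stood at 49.58, 33.37 and 47.93 FPKM in knock-out colon and 32.11, 48.52 and 26.37 FPKM in wild-type colon (0.31 ± 0.25 SE, adjusted p = 0.586). Tuba1b stood at 159.33, 108.95 and 157.29 against 118.63, 157.41 and 124.44 (0.08 ± 0.18 SE, adjusted p = 0.863). For each of them, wild-type replicate 2 was near the knock-out replicates 1 and 3, and knock-out replicate 2 was closer to the other wild-type libraries than to these. Tuba1c stood at 134.29, 133.78 and 119.72 FPKM against 96.97, 121.65 and 84.53, means of 129 ± 8.27 and 101 ± 18.9. Only knock-out replicate 3 lay below wild-type replicate 2 (0.37 ± 0.14 SE, unadjusted p = 0.0375 in limma, adjusted p = 0.396).

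Tubb4b stood at 518.27, 449.88 and 491.13 FPKM in knock-out colon and 431.32, 496.28 and 452.17 in wild-type colon, a narrow range in which the groups overlapped (0.08 ± 0.09 SE, adjusted p = 0.706). Tubb5, the mouse counterpart of TUBB and a beta-tubulin of dividing cells, stood at 59.80, 36.62 and 57.67 against 41.29, 63.06 and 40.69 (0.08 ± 0.24 SE, adjusted p = 0.891). Tubb6 stood at 6.16, 6.21 and 5.66 against 5.25, 6.70 and 5.26 (0.06 ± 0.11 SE, adjusted p = 0.813). For Tubb5 and Tubb6 the highest of the 6 libraries was wild-type replicate 2.

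Tubb2a was 47.91, 40.48 and 36.28 FPKM in the knock-out libraries and 10.2, 41.44 and 5.29 FPKM in the wild-type ones. Wild-type replicate 2 sat among the knock-out libraries, and the other wild-type libraries were far below. The coefficient of variation was 103% in wild-type and 14.2% in knock-out colon. The means were 41.6 ± 5.89 and 18.98 ± 19.6 FPKM (SD, n = 3 each), and the log2 fold change was 1.55 ± 0.65 SE (unadjusted p = 0.0495, adjusted p = 0.396, limma). Without wild-type replicate 2 it was 2.33 (adjusted p = 0.00327), and Tuba1c was 0.51 (0.0186), in a fit that called 16.4% of 11344 genes (9.21% higher). Without wild-type replicate 3 the Tubb2a value was 0.96 (0.823).

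The low-level members followed the same libraries. Tubb2b was 3.69, 1.70 and 2.41 FPKM in knock-out colon and 0.96, 2.77 and 1.17 in wild-type colon (0.48 ± 0.31 SE, adjusted p = 0.5001). Tubb3 was 3.87, 2.71 and 2.89 against 2.32, 4.24 and 1.17 (0.30 ± 0.31 SE, adjusted p = 0.676). Wild-type replicate 2 was the highest of the wild-type libraries for 10 of 10 members, beside 44.1% of all tested genes. Knock-out replicate 2 was the lowest knock-out library for 7 of 10, beside 59.8%.

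**Figure D2:**
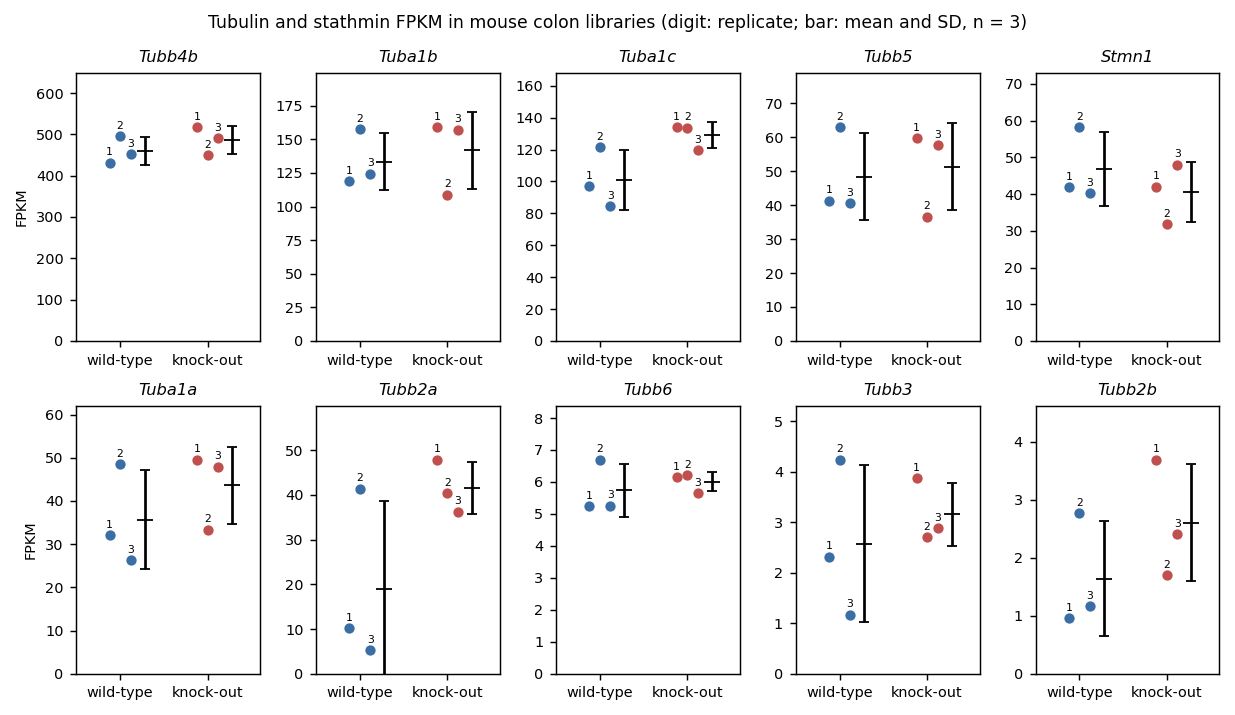
FPKM of the 10 members in mouse colon, 1 panel per gene with its own axis from 0. Points are libraries numbered by replicate (blue wild-type, red knock-out), and bars are the mean and SD of 3, cut at 0 for Tubb2a. Wild-type replicate 2 is the highest blue point in each panel, and in Tubb2a the other blue points are at 10.2 and 5.29 FPKM.

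**Figure D3:**
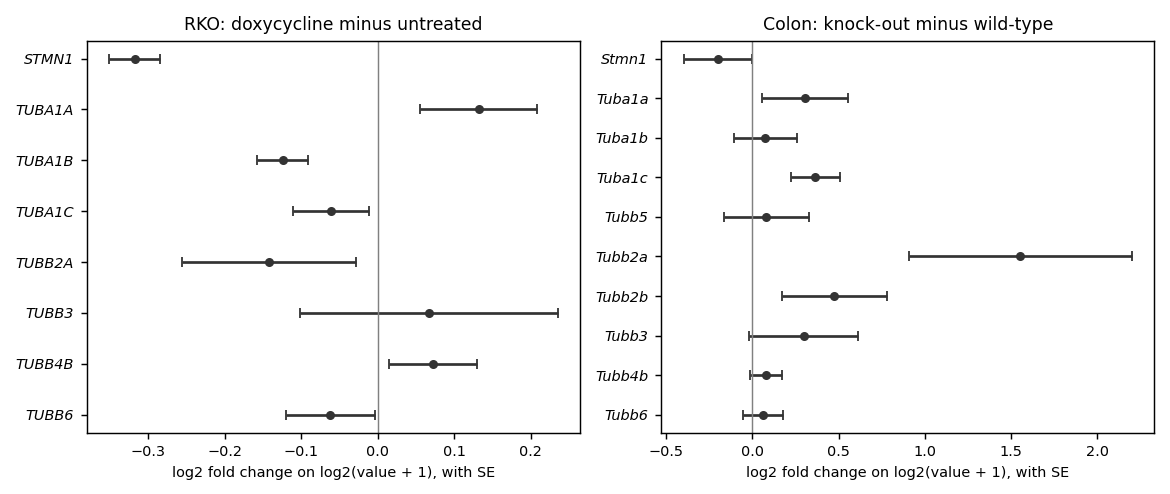
Log2 fold change with its SE for each member, on log2(value + 1), doxycycline minus untreated in RKO cells on the left and knock-out minus wild-type in colon on the right, on different axis ranges. STMN1 stands at -0.32 on the left and Stmn1 at -0.20 on the right, and Tubb2a is the farthest point on the right at 1.55.

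Wild-type replicate 2 also stood apart in genes that mark position along the colon. A score of Hoxb6, Hoxb7 and Hoxb8, which are higher in proximal colon, minus 5 distal HOX genes was 2.68, 1.28 and 1.78 in the knock-out libraries and -2.43, 1.88 and -4.42 in the wild-type ones. Tubb2a was between 36.28 and 47.91 FPKM in the 4 libraries with a positive score and at 10.2 or lower in the other 2. With this score as a covariate, the Tubb2a difference was 0.03 (adjusted p = 0.999), that of Tuba1c 0.09 (0.989) and that of Stmn1 -0.53 (0.989). In 7 other members, Tuba1a, Tuba1b, Tubb5, Tubb2b, Tubb3, Tubb4b and Tubb6, the difference turned negative in that fit. The score and genotype share libraries, and their parts in the Tubb2a difference cannot be told apart.

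**Figure D4:**
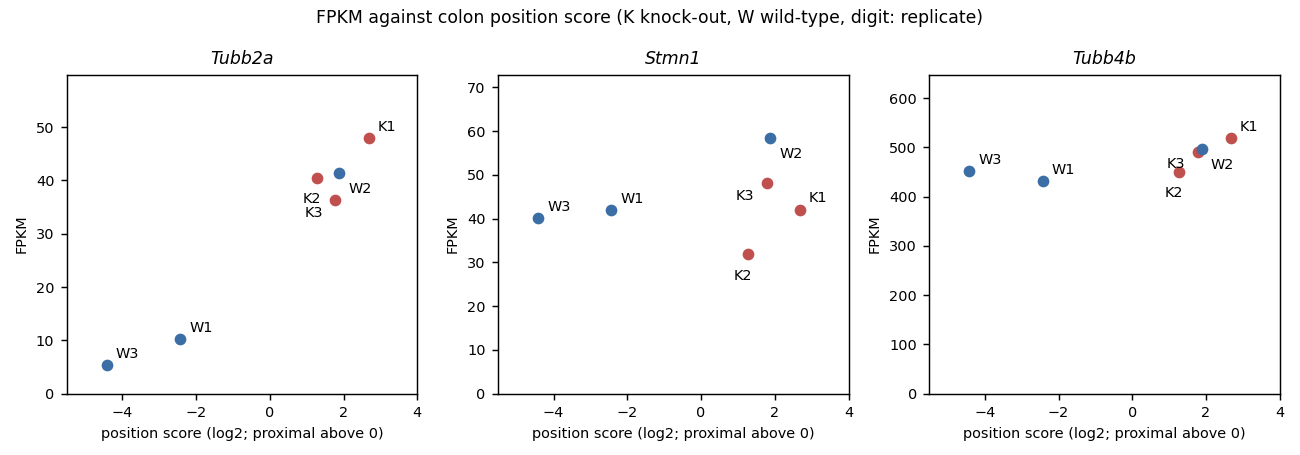
FPKM of Tubb2a, Stmn1 and Tubb4b against the position score, the mean log2 of 3 proximal minus that of 5 distal HOX genes, 1 point per colon library (blue wild-type, red knock-out). Tubb2a is at 5.29 and 10.2 FPKM in the 2 libraries with negative scores and between 36.28 and 47.91 FPKM in the other 4.

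Markers of other cells moved between these libraries as well. Summed markers of dividing cells were 56.0, 36.0 and 61.3 FPKM in knock-out colon and 34.7, 58.1 and 25.8 in wild-type colon. Of the 9 tested, 8 were positive, beside 44.6% of all genes. Summed neuron markers, 8 of 8 measured, were 30.1, 18.2 and 22.9 FPKM against 17.1, 27.1 and 13.0. Tubb3 had the same order of libraries within each genotype, and so did Tuba1a and Tubb5, so that order is not particular to the neuronal isotype. Summed smooth muscle markers, 6 of 6 measured, were 433, 499 and 319.8 FPKM against 212, 412 and 245. Summed epithelial markers, 8 of 8, ran from 10561 to 11571 FPKM in knock-out and from 9050 to 11428 FPKM in wild-type colon. Glial markers summed to at most 3.18 FPKM and immune markers to between 9.92 and 25.6 FPKM, and 0 markers of these lists were at 0 in all libraries. The part of cell make-up in the tubulin differences was not tested.

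FPKM are per length, so levels can be compared between genes. Over the 6 colon libraries the means ran from Tubb4b at 473 FPKM to Tuba1b at 138, Tuba1c at 115, Tubb5 at 49.9, Stmn1 at 43.7, Tuba1a at 39.6, Tubb2a at 30.3, Tubb6 at 5.87, Tubb3 at 2.87 and Tubb2b at 2.12. Tubb4b lay above Tuba1b, Tuba1c above Tubb5 and Tubb6 above Tubb3 in 6 of 6 libraries without overlap. The neighbours from Tubb5 to Tubb2a overlapped, and their order differed by genotype: in knock-out colon Tuba1a (43.6 FPKM) and Tubb2a (41.6) had higher means than Stmn1 (40.6), and in wild-type colon lower ones (35.7 and 18.98 against 46.8). Ranges also overlapped for Tuba1b and Tuba1c, Tubb2a and Tubb6, and Tubb3 and Tubb2b. By mean, TUBB4B, TUBA1B and their mouse counterparts were the most abundant measured beta and alpha isotypes in cell line and tissue, on scales that were normalized separately. Tuba1b stood above Tuba1c in 5 of 6 colon libraries, with Tuba1c the higher in knock-out replicate 2. The split of reads between alpha isotypes is uncertain, as stated above.

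Tubulin make-up in colon was tested on shares of summed FPKM. Tubb4b made up 82.4% ± 1.33 of the beta isotypes in knock-out and 85.98% ± 4.59 in wild-type colon (exact two-sided permutation p = 0.4). Tubb2a made up 7.49%, 7.53% and 6.09% in the knock-out libraries and 2.08%, 6.74% and 1.05% in the wild-type ones (exact permutation p = 0.2). Tuba1b made up 44.8% ± 4.70 of the alpha isotypes in knock-out and 49.6% ± 2.83 in wild-type colon (exact permutation p = 0.3), and Tuba1c 41.5% ± 6.15 and 37.4% ± 1.63 (p = 0.5, exact permutation). Over the 9 shares the adjusted p ran from 0.75 to 0.9, and 0.1 is the smallest unadjusted p this design allows.

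**Figure D5:**
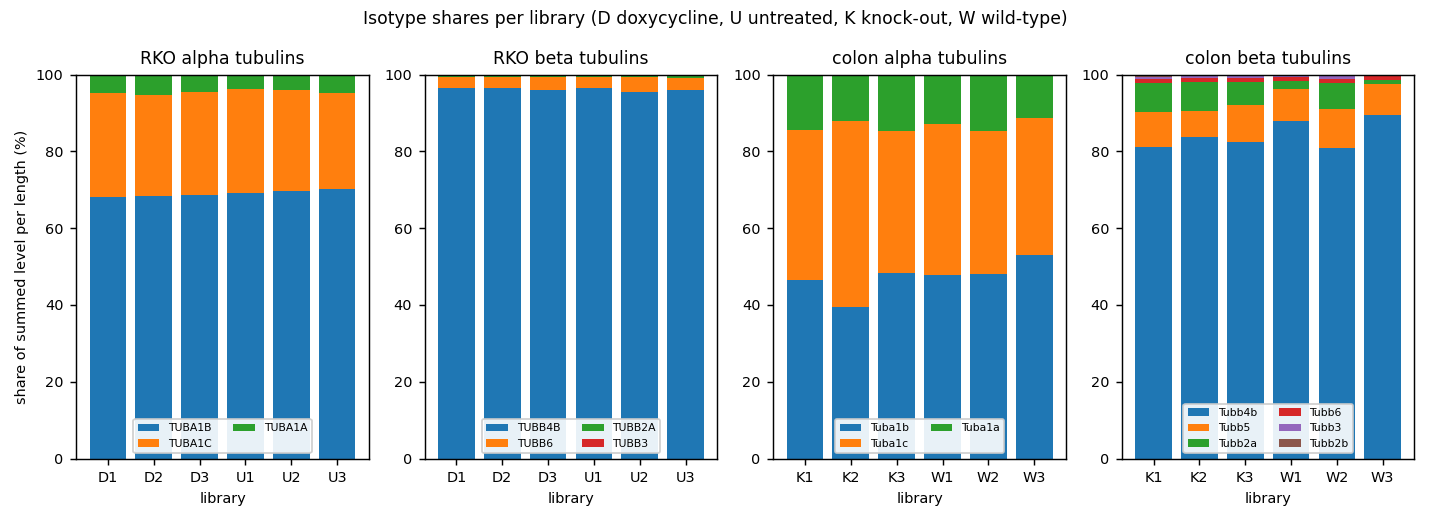
Share of each isotype in the summed alpha- or beta-tubulin level per length, in percent, as stacked bars from 0 to 100 for each library of RKO cells and colon. TUBB4B fills at least 95.58% of each RKO beta bar, in which TUBB and TUBB2B are not included, and the Tubb2a band is 1.05% to 7.53% of the colon beta bars.

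Relative to alpha-tubulin, Stmn1 stood at 12.2, 11.5 and 14.8 per 100 in knock-out colon and at 17.0, 17.8 and 17.1 in wild-type colon. The means were 12.9 ± 1.71 and 17.3 ± 0.460, the groups did not overlap, and the exact two-sided permutation p was 0.1, the smallest possible. This ratio was chosen after the values had been seen, and 15.9% of all tested genes had a ratio to alpha-tubulin that was lower without overlap (9.79% had lower levels without overlap). Summed alpha-tubulin was 315 ± 34.7 FPKM in knock-out and 270.2 ± 50.1 FPKM in wild-type colon. Per 100 beta-tubulin, Stmn1 stood at 6.85 ± 1.10 and 8.66 ± 0.780 (exact permutation p = 0.2).

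The 5 profiles closest to Stmn1 in colon were those of Pold1 and Mcm5, which act in DNA replication, Dtymk, which makes a DNA precursor, Maz and Ccl27a. Their root mean square differences ran from 0.0476 for Pold1 to 0.0796 for Ccl27a on centred log2 values over 6 libraries. Closest to Tubb3 were Ccl9, Ndrg4, Wbp5, H2-Q10 and Dnph1, from 0.0643 for Ccl9 to 0.0975 for Dnph1.

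Related genes in colon gave 0 calls in each of the 7 lists. Of the other tubulins 5 were tested, and Tubal3, an alpha-like tubulin, had 13.2 ± 0.155 against 8.50 ± 4.08 FPKM (0.68, limma adjusted p = 0.406), with Tubg1, gamma-tubulin, at -0.23 (0.408). Of the neuronal stathmins, Stmn2 had 0.45 (0.437) and Stmn3 0.24 (0.744). Of 21 folding genes 16 were negative, beside 55.4% of all genes, with the prefoldin subunits Pfdn2 at -0.33 (0.396) and Pfdn1 at -0.17 (0.473). Among the 3 autoregulation genes, Cnot11 had -0.16 (0.416) and Ttc5 -0.12 (0.600).

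Of 14 modifying enzymes 10 were negative, beside 55.4% of all genes. The glutamylase Ttll6 had 5.67 ± 1.43 against 13.8 ± 5.48 FPKM (-1.10, limma adjusted p = 0.396), with Ttll1 at -0.33 (0.409). Among 20 binding and severing genes, the plus-end protein gene Clip1 had -0.27 (0.398) and Map7 -0.16 (0.398). Among 16 gamma-tubulin nucleation genes 11 were negative, with Tubgcp4 at 12.7 ± 0.573 against 17.6 ± 3.58 FPKM (-0.43, 0.396) and Mzt1 at 18.5 ± 0.703 against 21.6 ± 1.46 FPKM (-0.21, 0.396). Without wild-type replicate 2, 6 of 80 genes tested in the 7 lists passed, 4 higher and 2 lower, in the fit that called 16.4% of all genes. They were 1 of 5 other tubulins, Tubal3 (0.98, adjusted p = 0.0472), 1 of 2 stathmins, Stmn2 (0.70, 0.0400), 1 of 14 modifying enzymes, Ttll6 (-1.40, 0.00831), and 1 of 16 nucleation genes, Tubgcp4 (-0.60, 0.00827). The other 2, Clip2 and Mapre3 among 19 binding and severing genes, were higher and are named after their values were seen, and 0 of 21 folding and 0 of 3 autoregulation genes passed.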

How the data were processed

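RNA was measured in 12 libraries. Libraries were made from poly(A)-selected RNA with random priming, per the labels' protocols. The tools listed in the submitters' processing notes are edgeR, HTSeq, HISAT and Bowtie2, with hg19 as the only build and no roles or versions. The RKO values deposited by the authors are called signal here: their column sums are far above those of the colon table, so the FPKM that the labels' file name states is in doubt. It also states ComBat, a batch adjustment whose batches are not given. The colon values are FPKM as deposited by the authors, per the file headers. Neither table gives read depth, and intervals for counting error were therefore not computed.

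The tables were analysed separately as log2(value + 1), which understates changes of low genes. Genes with a mean of at least 1 were kept and compared with limma 3.58.1 in R 4.3.3, a moderated test with a variance trend, and p-values were adjusted (Benjamini-Hochberg) over all genes tested. The test had been chosen for FPKM and was kept for signal. It was run on simulated data with 200 changed genes. Noise there was independent between libraries, with no batch and no outlying library, so that run says nothing about their effect here. Isotype shares in colon and the targeted genes were compared with an exact permutation test in SciPy 1.17.1. The RKO shares were described without a test. GC content was had for 84.2% of RKO rows.

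The members and the gene lists were chosen with earlier results of these data known. All 10 members are named. Of each of the 7 related lists, called genes are named, or else the 2 with the lowest unadjusted p. Deviations of same-numbered libraries had correlations of -0.53 to 0.08 in RKO and -0.45 to 0.15 in colon, and the numbers were not taken as pairs. In RKO this cannot decide whether libraries shared a batch, since a batch adjustment can itself turn such correlations negative. Of the pairs that hold equal values, replicates 2 had -0.53, and doxycycline replicate 3 with untreated replicate 1 had -0.34. Alternatives were other pseudocounts, minimum means, rescalings, blocks, a GC correction, a position covariate and removal of each library.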

Additional observations from a re-analysis of the deposited data

How the results depend on the processing

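The count of 178 called RKO genes was 88 with the GC trend removed and ranged from 1 to 24 with 1 library left out. With the replicate block by number it was 1, and with a replicate block by the libraries that share equal values, plus the pair left over, it was 0 in limma (1670 at an unadjusted p under 0.05). Rescaling moved the split of higher to lower calls from 60 and 118 to 59 and 67 (equal sums), 69 and 62 (quantile) and 72 and 59 (median centring). Members called in RKO were 0 in both block fits, so STMN1 was not called there, and 0 to 1 with 1 library left out. ZNF280C stayed at -0.98 in both block fits (adjusted p = 0.0991 and 0.0769) and ranged from -1.13 to -0.82 with 1 library left out. MZT1 and TUBGCP6 had adjusted p of 0.0553 and 0.0991 with the block by number and of 0.161 and 0.206 with the other, and CDX2 had 0.116 and 0.215. In colon 0 genes were called in each fit but that without wild-type replicate 2, so the counts ranged from 0 to 1861 genes and 0 to 2 members, and the block changed no call. With 1 library left out, Zfp280c ranged from -1.75 to -1.57 and passed without that library (adjusted p = 0.00205). It was -3.58 and -0.32 with pseudocounts of 0.1 and 10 and -1.50 with the position covariate, and did not pass in these.

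Signs that turned belonged to values that had not passed. STMN3 was -0.0251 with the GC trend removed and ranged from -0.0401 to 0.11 with 1 library left out. In the same fits TUBB3 ranged from -0.0218 to 0.21, and the difference in its RKO share from -0.0163 to 0.0245 percentage points. With the position covariate Tuba1a was -0.21, Tuba1b -0.18, Tubb5 -0.35, Tubb2b -0.10, Tubb3 -0.41, Tubb4b -0.0286, Tubb6 -0.11, Stmn2 -0.0539 and Stmn3 -0.36. With 1 library left out, the ranges were -0.0142 to 0.51 for Stmn3, -0.0167 to 0.26 for Tuba1b, -0.0153 to 0.62 for Tubb3, -0.0411 to 0.31 for Tubb5, -0.126 to 1.68 percentage points for the Tuba1a share, -0.0498 to 0.18 percentage points for the Tubb3 share and -0.824 to 0.608 percentage points for the Tubb5 share. The cause was not tested. Depth is unknown, and 3 libraries a group limit what could be called.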
